A study of Mus musculus with 2 samples.

Results

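The 10 genes described here are the bone morphogenetic protein (BMP) ligand genes *Bmp2*, *Bmp4* and *Bmp7*, the receptor genes *Bmpr1a* and *Bmpr2*, the target genes *Id1*, *Id2* and *Id3*, and the inhibitory Smad genes *Smad6* and *Smad7*. They were taken by symbol from a table of 42422 gene identifiers counted in foetal mouse gonadal somatic cells, and each matched 1 identifier. All 10 were among the 15125 genes that passed the filter on low counts and were tested.

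BMPs are secreted ligands of the TGFβ family that bind a complex of type I receptors, such as BMPR1A, and type II receptors, such as BMPR2. The receptors phosphorylate SMAD1, SMAD5 and SMAD9, which enter the nucleus with SMAD4 and switch on direct targets. The Id genes, which encode helix-loop-helix proteins that block other transcription factors of that kind, are the standard readout of this signal, and SMAD6 and SMAD7 are induced by it and feed back to inhibit it. In the foetal gonad *Bmp2* is a marker of the developing ovary.

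The study asked how blocking FGF receptors (FGFRi) or MEK1/2 (MEKi) affects the foetal testis. Embryos carried the Oct4-eGFP transgene, which is active in germ cells, on a 129svJT2 background crossed to Swiss mice, and were otherwise wild type. Gonads with mesonephros were taken at E12.5 and either used at once (0 h) or cultured for 24 h or 72 h with the vehicle DMSO or with 500 nM of an inhibitor. The mesonephros was then removed and GFP-negative cells were sorted, so each library is a mixture of all somatic cells of pooled gonads. The 10 groups hold 4 libraries each: XX and XY at 0 h, XX and XY with DMSO at 24 h and 72 h, and XY with MEKi and with FGFRi at 24 h and 72 h. Libraries are named by sex and number as in the labels (F4, M2). No uncultured group is of a later age, so between 0 h and 24 h the effect of culture and 24 h of development cannot be told apart. Each comparison between groups lies within a single pool of libraries, except that of FGFRi with DMSO at 24 h, where treatment and pool cannot be told apart.

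Total counts per library were between 1380707 and 4836550 (median 2248854), and levels are given as CPM, the counts of a gene scaled to a common library total, with library sizes adjusted by TMM. The counts come from the 3′ end of transcripts, so levels of a gene are compared between samples and not between genes. The lowest count of a member in any library was 8, for *Smad6*. Transcripts of the sex chromosomes went with the label in 40 of 40 libraries. The Sertoli cell markers summed to at most 393 CPM in XX libraries and at least 713 CPM in XY libraries, and the pre-granulosa markers to at least 1249 CPM in XX and at most 278 CPM in XY. Endothelial, interstitial, macrophage, erythroid and germ cell markers were also present, and germ cell markers summed to between 16.1 and 456 CPM. In such bulk samples, fewer cells of a type and less RNA per cell cannot be told apart. A gene was called when its FDR, the Benjamini-Hochberg adjusted p over all genes tested of the quasi-likelihood test of edgeR, was below 0.05 and its fold change was at least 1.5. Log2 fold changes are given with their standard error (SE). Nothing in the labels says that libraries of a group came from separate litters, so the tests measure the spread between these pools.

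*Bmp2* was the member that differed most between the sexes. It was measured in XX cells at 114, 109, 84.4 and 116 CPM before culture, and in XY cells at 9.75, 14.8, 14.3 and 7.83 CPM. The lowest XX library was above every XY library by a wide margin. The log2 fold change was 3.20 (SE 0.220, FDR 1.26e-17), or 9.21-fold. After 24 h with DMSO the XX libraries had 82.7, 95.3, 79.3 and 105 CPM and the XY libraries 23.9, 39, 32.4 and 29.9 CPM. After 72 h they had 121, 84.5, 86.7 and 78.8 CPM in XX and 42.3, 29.3, 30.9 and 53.8 CPM in XY. The groups did not overlap at either time, but the difference was smaller, with a log2 fold change of 1.52 (SE 0.178, FDR 5.76e-10) at 24 h and 1.24 (SE 0.183, FDR 2.62e-07) at 72 h.

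The narrowing of the *Bmp2* difference lay in the XY cells. Between 0 h and 24 h with DMSO the XY mean rose from 11.7 ± 3.4 to 31.3 ± 6.3 CPM (SD, n = 4), without overlap, a log2 fold change of 1.45 (SE 0.234, FDR 3.25e-06). The XX mean went from 106 ± 15 to 90.5 ± 12 CPM (SD, n = 4), with overlapping libraries and a log2 fold change of −0.23 (SE 0.168, FDR 0.414). The difference between the 2 culture responses was itself past the threshold, at −1.69 (SE 0.289, FDR 4.82e-05). Over all 10 groups, no XX library was below 78.8 CPM and no XY library, with or without an inhibitor, was above 53.8 CPM.

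**Figure D1:**
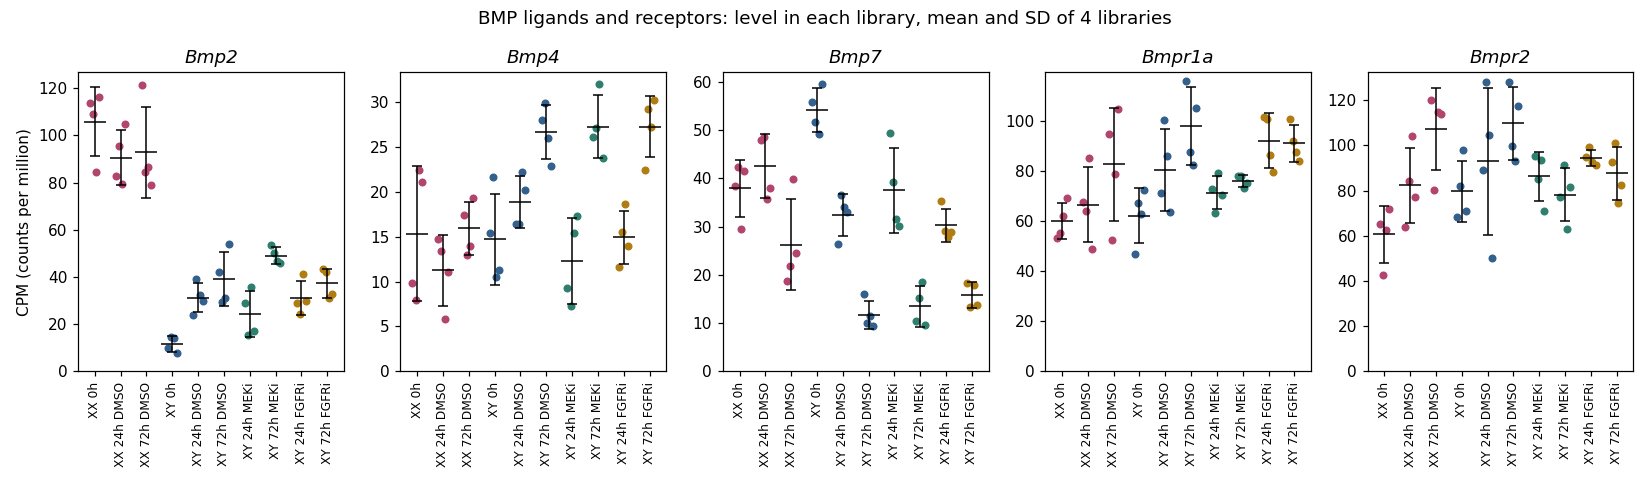
Levels of the BMP ligand and receptor genes in CPM (vertical axis, starting at 0) in each of the 10 groups (horizontal axis). Each point is a library, and the black line and bars give the mean and SD of 4 libraries. XX libraries of *Bmp2* lie at 78.8 CPM or above and XY libraries at 53.8 CPM or below, while *Bmpr1a* and *Bmpr2* overlap between the sexes at every time.

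*Bmp4*, which encodes a ligand closely related to BMP2, was not called between the sexes before culture and overlapped, with 9.82, 7.95, 22.5 and 21.1 CPM in XX and 15.4, 21.6, 10.5 and 11.3 CPM in XY (log2 fold change 0.04, SE 0.273, FDR 0.936). After culture it was lower in XX cells. At 24 h the XX libraries had 14.7, 13.4, 5.80 and 11.1 CPM and the XY libraries 16.4, 16.4, 22.2 and 20.2 CPM, and at 72 h they had 17.4, 13, 14 and 19.3 CPM against 28.0, 29.8, 25.9 and 22.8 CPM. Neither pair of groups overlapped, and the log2 fold changes were −0.71 (SE 0.246, FDR 0.0261) and −0.75 (SE 0.247, FDR 0.0174). These were the weakest of the called sex differences in the ligands. The call at 24 h was lost without XX library F6 (−0.54, FDR 0.117), XX F9 (FDR 0.0505), XY M4 (FDR 0.0925) or XY M5 (FDR 0.0525), and that at 72 h without XX F4 (FDR 0.0538) or XX F7 (FDR 0.0646).

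*Bmp7*, a ligand of the subgroup of BMP5 and BMP6, was lower in XX than in XY cells before culture and higher after 72 h. At 0 h the XX libraries had 38.4, 42.4, 29.4 and 41.5 CPM, all below the XY libraries at 55.9, 51.8, 49.2 and 59.6 CPM. That difference passed the FDR but not the fold change (log2 fold change −0.49, SE 0.183, FDR 0.0424). At 24 h the libraries overlapped between 35.8 and 36.5 CPM, at a log2 fold change of 0.39 (SE 0.176, FDR 0.0964). At 72 h the XX libraries had 18.8, 21.9, 39.9 and 24.5 CPM and the XY libraries 16.0, 9.94, 11.5 and 9.52 CPM. Every XX library was then the higher, and the log2 fold change was 1.17 (SE 0.221, FDR 2.97e-05). XX library F7 stood above the others, and without any 1 library the value stayed between 0.85 and 1.39 and called.

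In XY cells *Bmp7* fell from 54.1 ± 4.6 to 32.5 ± 4.3 CPM (SD, n = 4) in the first 24 h with DMSO, without overlap (log2 fold change −0.73, SE 0.178, FDR 0.00169). In XX cells the corresponding value was 0.16 (SE 0.182, FDR 0.653). The difference of these responses was 0.89 (SE 0.254, FDR 0.0214). It lost its place below the threshold without XX 0 h library F4 (FDR 0.0561), XX 24 h F5 (FDR 0.0577) or XY 24 h M2 (FDR 0.0614), and with total counts for scaling (FDR 0.059).

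The receptor genes were not called in any of the 10 comparisons. *Bmpr1a* group means ranged from 59.9 CPM in XX cells at 0 h to 97.7 CPM in XY cells with DMSO at 72 h, and *Bmpr2* means from 60.7 to 110 CPM in the same pair of groups. Between the sexes, log2 fold changes of *Bmpr1a* were −0.06, −0.29 and −0.25 at 0 h, 24 h and 72 h (FDR 0.853, 0.155 and 0.239), and those of *Bmpr2* were −0.39, −0.20 and −0.03 (FDR 0.122, 0.429 and 0.918). The 95% intervals of *Bmpr1a* ran from −0.38 to 0.27, −0.59 to 0.01 and −0.55 to 0.06 at these times. Those of *Bmpr2* ran from −0.76 to −0.03, −0.53 to 0.14 and −0.37 to 0.31, so that at 0 h its interval lay below 0 (unadjusted p 0.0366 from edgeR) and reached past a 1.5-fold difference. An exon of *Bmpr2* overlaps another annotated gene on the same strand, ENSMUSG00000144256, so some of its counts could be shared.

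Before culture, edgeR called 0 of the 5 Id and inhibitory Smad genes between the sexes, where 17.3% of all genes tested were called. The log2 fold changes were 0.24 for *Id1*, −0.35 for *Id2*, −0.08 for *Id3*, −0.16 for *Smad6* and −0.06 for *Smad7*. DESeq2 also called 0. *Id2* was the 1 of the 5 with an unadjusted p below 0.05 (0.0339 from edgeR), and its 95% interval, from −0.68 to −0.03, lay below 0. After 24 h with DMSO all 5 were called lower in XX cells, by between 0.63 and 1.32 on the log2 scale. At that time 10.3% of all genes tested were called lower in XX. For each of the 5, every XX library lay below every XY library, and the share of all genes separated in this way was not counted. The upstream sequences of *Id2*, *Id3* and *Smad6* are shown because these are the members of this group for which a RefSeq promoter entry was used. They are the 250 bases before the annotated start on GRCm38.p6, at chr12:25096093-25096342 (minus strand) for *Id2* and chr4:136143572-136143821 (plus strand) for *Id3*, and 254 bases at chr9:64022056-64022309 (minus strand) for *Smad6*, where the last 4 bases lie after the start.
Id2: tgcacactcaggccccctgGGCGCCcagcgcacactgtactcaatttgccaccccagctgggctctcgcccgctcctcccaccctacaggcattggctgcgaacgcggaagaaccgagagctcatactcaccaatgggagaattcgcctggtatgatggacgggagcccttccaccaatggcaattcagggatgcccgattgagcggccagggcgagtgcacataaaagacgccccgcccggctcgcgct
Id3: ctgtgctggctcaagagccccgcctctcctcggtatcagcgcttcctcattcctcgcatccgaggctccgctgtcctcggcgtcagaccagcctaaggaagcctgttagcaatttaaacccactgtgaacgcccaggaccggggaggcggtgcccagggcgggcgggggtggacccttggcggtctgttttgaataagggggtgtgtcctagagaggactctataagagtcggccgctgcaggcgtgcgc
Smad6: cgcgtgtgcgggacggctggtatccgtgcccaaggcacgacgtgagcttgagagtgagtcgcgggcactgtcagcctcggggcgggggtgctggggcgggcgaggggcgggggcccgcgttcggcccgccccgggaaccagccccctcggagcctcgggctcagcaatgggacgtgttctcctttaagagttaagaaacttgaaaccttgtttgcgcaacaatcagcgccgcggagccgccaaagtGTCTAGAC
Capitals mark matches to 3 motifs bound by Smad proteins, searched on both strands in the 300-base windows (250 bases before and 50 after the start) of 32851 promoters. GGCGCC, the GC-rich element of the BMP-responsive Smads, reads the same on both strands. It stood at −231 to −226 in *Id2*, and 11.9% of all promoters hold it. GTCTAGAC, the palindromic Smad-binding element, spans the start of *Smad6* from −4 to 4, counting the first transcribed base as 1 and the base before it as −1, and 0.213% of promoters hold it. CAGACA, a Smad box with flanking bases, was searched with its reverse complement. It was found in none of these 3 windows and is held by 21% of promoters. None of the matches overlapped. The *Id3* window held no match, and GGCGCC was also present for *Bmpr1a* at −198 to −193 and *Bmpr2* at −105 to −100, which were not called in any comparison. A match is a string of letters and not a measured binding site.

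*Id3* showed the largest difference of the 5. In uncultured cells it had 264, 269, 219 and 198 CPM in XX and 275, 249, 226 and 256 CPM in XY, and the log2 fold change was −0.08 (SE 0.119, FDR 0.692). At 24 h the XX libraries had 113, 121, 101 and 81.4 CPM and the XY libraries 295, 194, 261 and 297 CPM. The highest XX library was below the lowest XY library, with a log2 fold change of −1.32 (SE 0.121, FDR 3.11e-13). At 72 h the levels were 169, 190, 228 and 194 CPM in XX and 235, 207, 290 and 257 CPM in XY. The groups then overlapped, and the value of −0.33 (SE 0.119, FDR 0.0292) did not reach a 1.5-fold change. The sex difference at 72 h and that at 24 h differed by 0.99 (SE 0.170, FDR 0.00015), the sole member for which this test passed the threshold. The corresponding values were 0.78 for *Bmp7* (FDR 0.179) and 0.55 for *Id1* (FDR 0.293), and lay between −0.28 and 0.31 for the other 7. The 2 time points lie in different pools, each holding both sexes.

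*Id1*, a direct BMP target that is abundant in endothelial cells, had 76.0, 86.1, 75.0 and 48.6 CPM in XX and 119, 104, 120 and 152 CPM in XY at 24 h. The log2 fold change was −0.78 (SE 0.166, FDR 0.000187). At 72 h the XX libraries had 79.9, 126, 106 and 117 CPM and the XY libraries 123, 133, 110 and 132 CPM, which overlapped (log2 fold change −0.22, SE 0.167, FDR 0.344). *Id2* had 131, 104, 93.8 and 58.9 CPM in XX and 183, 156, 196 and 195 CPM in XY at 24 h, with a log2 fold change of −0.90 (SE 0.160, FDR 9.12e-06). At 72 h it was still lower in each XX library, at 97.7, 139, 133 and 142 CPM against 214, 162, 188 and 209 CPM. The log2 fold change of −0.60 (SE 0.161, FDR 0.00335) was close to the fold threshold. It fell below it without XX library F11 (−0.49), XY M2 (−0.54) or XY M6 (−0.56), with no filter on low counts (−0.58) and with a minimum of 1 CPM in 4 libraries (−0.58).

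*Smad6*, whose product acts mainly on BMP receptors, was at low levels throughout. At 24 h it had 8.06, 11.1, 10.2 and 8.30 CPM in XX and 15.7, 17.9, 18.8 and 19.4 CPM in XY, a log2 fold change of −0.92 (SE 0.241, FDR 0.00247). At 72 h the values were 12.7, 4.73, 7.75 and 5.22 CPM in XX and 21.3, 9.44, 18.9 and 16.7 CPM in XY, and XX library F11 lay above XY library M4. The log2 fold change was −1.11 (SE 0.268, FDR 0.00096). *Smad7*, whose product inhibits both BMP and TGFβ receptors, had 33.3, 36.4, 41.1 and 22.9 CPM in XX and 54.5, 52.9, 54.2 and 44.3 CPM in XY at 24 h. It had 34.3, 25.4, 40.8 and 38.1 CPM against 73.3, 56.2, 58.8 and 66.6 CPM at 72 h. The groups did not overlap at either time, with log2 fold changes of −0.63 (SE 0.155, FDR 0.00126) and −0.86 (SE 0.161, FDR 2.41e-05). Without XX library F9 the value at 24 h was −0.51 (FDR 0.0142), short of a 1.5-fold change.

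**Figure D2:**
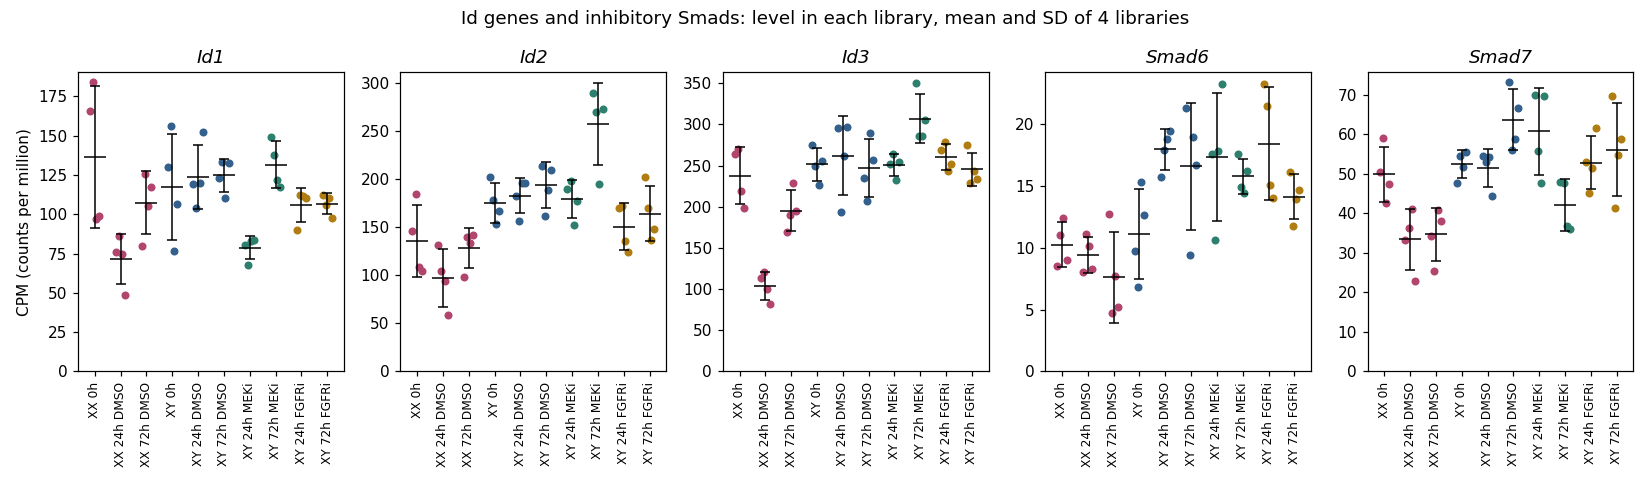
Levels of the Id and inhibitory Smad genes in CPM (vertical axis, starting at 0) in each of the 10 groups (horizontal axis). Each point is a library, and the black line and bars give the mean and SD of 4 libraries. At 24 h with DMSO each XX library lies below every XY library in all 5 panels, and at 72 h this holds for *Id2* and *Smad7* alone.

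Counted over the members, 1 of 10 was called between the sexes at 0 h, where 17.3% of all genes tested were called (8.01% higher in XX). At 24 h, 7 of 10 were called, 1 higher and 6 lower in XX, where 19.6% of genes tested were called (9.24% higher and 10.3% lower). At 72 h, 6 of 10 were called, 2 higher and 4 lower in XX, against 20.3% of genes tested (9.47% higher and 10.8% lower). The median log2 fold change of the members was −0.07, −0.67 and −0.29 at the 3 times, and that of all genes tested was −0.01 at each. The calls depended on the form of the test for most members. With glmTreat, which tests for a change beyond 1.5-fold, *Bmp2* and *Id3* were called at 24 h and *Bmp2* and *Bmp7* at 72 h. With voom, quality weights and treat, *Bmp2* and *Id3* were called at 24 h and *Bmp2* alone at 72 h.

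**Figure D3:**
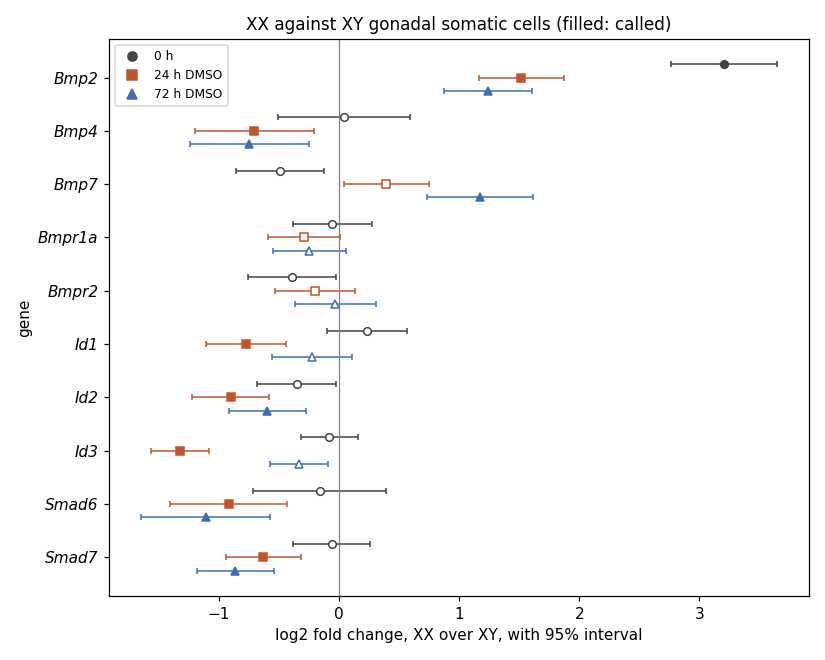
Log2 fold changes of XX over XY cells (horizontal axis) for the 10 genes (vertical axis) at 0 h, 24 h and 72 h, with 95% intervals. Filled symbols were called. *Bmp2* lies to the right at every time, and the Id and inhibitory Smad genes lie between −0.35 and 0.24 at 0 h and to the left at 24 h, from −0.63 to −1.32.

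Other cell markers moved with the same comparison. At 24 h, 7 of 7 interstitial progenitor markers were called lower in XX cells, and their summed level was 551 to 730 CPM in XX and 1607 to 1932 CPM in XY. For endothelial cells 11 of 14 markers were called lower, with sums of 157 to 201 CPM and 292 to 443 CPM. Of the pericyte and smooth muscle markers 5 of 7 were lower and 1 higher, with sums of 321 to 374 CPM and 548 to 605 CPM. Of the foetal Leydig cell markers 4 of 5 tested were lower, with sums of 156 to 198 CPM and 655 to 963 CPM, and of the erythroid markers 7 of 8, with sums of 966 to 2217 CPM and 2749 to 7946 CPM. None of these markers was at 0 in either group, except *Insl3*, a Leydig cell hormone gene, which had no count in any XX library. At 0 h, where the Id genes and inhibitory Smads were not called, the markers called lower in XX were 5 of 7 interstitial, 7 of 14 endothelial, 3 of 7 pericyte and smooth muscle (with 2 higher), 3 of 5 Leydig and 2 of 8 erythroid. Their sums at 0 h were 662 to 799 and 1254 to 1504 CPM for interstitial, 179 to 281 and 332 to 395 CPM for endothelial, 145 to 206 and 205 to 249 CPM for pericyte and smooth muscle, 79.2 to 123 and 158 to 310 CPM for Leydig, and 8701 to 15525 and 14791 to 18682 CPM for erythroid markers. The median log2 fold change of the Leydig markers was −0.81 at 0 h and −2.50 at 24 h. At 72 h, the markers lower in XX were 6 of 7 interstitial, 3 of 14 endothelial, 5 of 7 pericyte and smooth muscle (with 1 higher), 3 of 5 Leydig (with 1 higher) and 3 of 8 erythroid. Markers of mesonephros or duct epithelium went the other way. Of 5 tested, 2 were called higher in XX at 0 h, 3 at 24 h and 3 at 72 h, and 0 were called lower. Their sums were 255 to 338 CPM in XX and 89.8 to 133 CPM in XY at 24 h. At 72 h they were 192 to 210 CPM in XX and 50.4 to 99.0 CPM in XY. The part of all these markers in the differences of the members was not tested.

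The culture response, the change from 0 h to 24 h with DMSO, showed in which sex *Id1* and *Id3* had moved. In XX cells *Id3* fell from 238 ± 35 to 104 ± 17 CPM (SD, n = 4) within 24 h, without overlap, a log2 fold change of −1.19 (SE 0.123, FDR 1.39e-10). In XY cells it was 251 ± 20 and 262 ± 48 CPM (SD, n = 4), with a log2 fold change of 0.06 (SE 0.117, FDR 0.782). The difference between the sexes in this response was −1.24 (SE 0.170, FDR 4.66e-07). *Id1* fell in XX cells from 136 ± 45 to 71.4 ± 16 CPM (SD, n = 4) (log2 fold change −0.93, SE 0.169, FDR 5.04e-05) and had a log2 fold change of 0.08 (SE 0.164, FDR 0.779) in XY cells. The difference of these responses was −1.01 (SE 0.235, FDR 0.00285). The uncultured XX libraries of *Id1* were uneven, with F2 and F3 at 166 and 184 CPM and F4 and F5 at 96.8 and 99.1 CPM, but every one was above the highest XX library at 24 h, which had 86.1 CPM.

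*Smad7* also fell in XX cells, from 50.4, 59.2, 42.6 and 47.5 CPM to 33.3, 36.4, 41.1 and 22.9 CPM, without overlap (log2 fold change −0.59, SE 0.162, FDR 0.00953). That call was lost without XX 0 h library F3 (−0.50, FDR 0.0694) or XX 24 h library F9 (−0.47, FDR 0.059). It also fell short of a 1.5-fold change with total counts for scaling (−0.54), with no filter on low counts (−0.58) and with a minimum of 1 CPM in 4 libraries (−0.58). *Id2* in XX cells had a value of −0.49 (SE 0.165, FDR 0.0424), short of a 1.5-fold change, and was called without XX 0 h library F4 (−0.58) or F5 (−0.60) or XX 24 h library F4 (−0.66). In XY cells *Smad6* rose from 9.75, 6.83, 15.3 and 12.6 CPM to 15.7, 17.9, 18.8 and 19.4 CPM. The groups did not overlap, and the log2 fold change was 0.67 (SE 0.247, FDR 0.0406). It was not called without XY 0 h library M2 (FDR 0.114) or M3 (FDR 0.175), or XY 24 h library M3 (FDR 0.0726), M4 (FDR 0.0795) or M5 (FDR 0.0693), or with no filter on low counts (FDR 0.063). The responses of the 2 sexes did not differ past the threshold for *Id2* (−0.55, FDR 0.157), *Smad6* (−0.76, FDR 0.262) or *Smad7* (−0.57, FDR 0.125). Without XX 24 h library F4 that of *Id2* was −0.73 (FDR 0.0413), and with no filter on low counts −0.58 (FDR 0.0179). Of the members not yet given, *Bmp4* had log2 fold changes of 0.38 in XY and −0.37 in XX culture, *Bmpr1a* of 0.38 and 0.14, and *Bmpr2* of 0.24 and 0.43, none of them past the FDR. The differences of these responses were −0.75 (FDR 0.268), −0.24 (FDR 0.647) and 0.19 (FDR 0.756). *Id2* and *Smad7* had values of 0.06 and −0.02 in XY culture, and *Smad6* one of −0.08 in XX culture.

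In all, 3 of 10 members were called in the first 24 h of XX culture, each of them lower, where 7.73% of genes tested were called (2.27% lower). In XY culture 3 of 10 were called, *Bmp2* and *Smad6* higher and *Bmp7* lower, where 14.4% of genes were called. The responses differed between the sexes at an FDR below 0.05 for *Bmp2*, *Bmp7*, *Id1* and *Id3*, 4 of 10 members, against 6.89% of genes tested. The sex differences at 72 h and 24 h differed for 1 of 10, against 2.14%. Over the same 24 h the erythroid markers fell in both sexes, from sums of 8701 to 15525 CPM to 966 to 2217 CPM in XX and from 14791 to 18682 CPM to 2749 to 7946 CPM in XY, with 8 of 8 called lower in each. In XY cells 6 of 10 Sertoli cell markers were also called lower (sums of 2157 to 2445 CPM at 0 h and 1171 to 1715 CPM at 24 h). Of the pre-granulosa markers 4 of 8 rose in XY cells and 2 fell (134 to 153 and 213 to 251 CPM), and 2 of 7 tested macrophage markers fell. Of the pericyte and smooth muscle markers 5 of 7 rose there (205 to 249 and 548 to 605 CPM), of the Leydig markers 4 of 5 tested (158 to 310 and 655 to 963 CPM) and of the interstitial markers 3 of 7 (1254 to 1504 and 1607 to 1932 CPM). In XX cells 3 of 7 pericyte and smooth muscle markers rose and 1 fell (145 to 206 and 321 to 374 CPM), 2 of 5 Leydig markers rose and 1 fell (79.2 to 123 and 156 to 198 CPM), and 3 of 14 endothelial and 4 of 7 tested macrophage markers fell. Of the germ cell markers 3 of 6 tested rose in XX cells (66.7 to 90.5 and 108 to 209 CPM), and of the pre-granulosa markers 1 of 8 rose and 2 fell. Apart from *Insl3* in XX cells, none of these markers was at 0 in a group. Their part in the members' values was not tested.

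**Figure D4:**
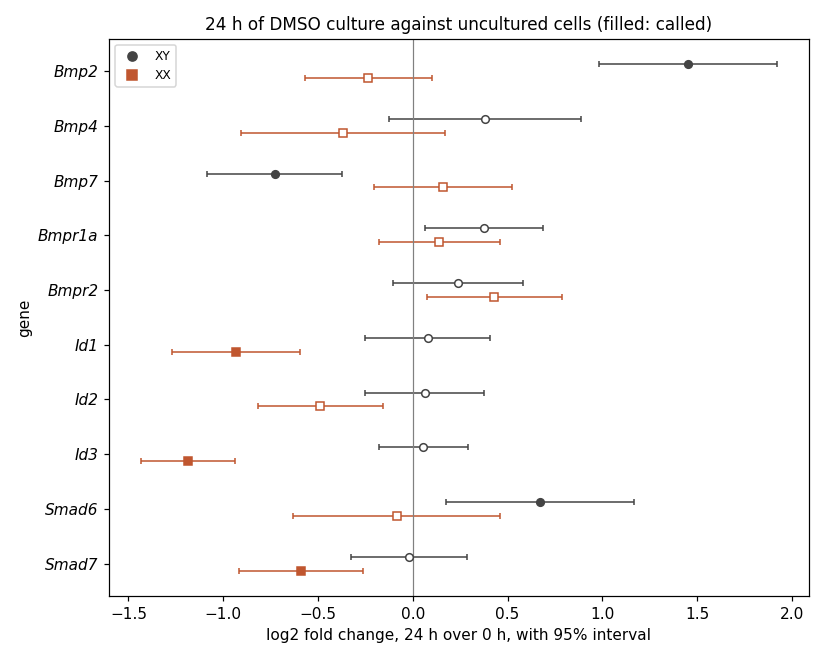
Log2 fold changes from 0 h to 24 h with DMSO (horizontal axis) for the 10 genes (vertical axis) in XY and XX cells, with 95% intervals. Filled symbols were called. *Id1* and *Id3* lie to the left in XX cells, at −0.93 and −1.19, and near 0 in XY cells, while *Bmp2* lies to the right in XY cells at 1.45.

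With MEK1/2 inhibition, 1 of the 10 genes was called in XY cells at 24 h and another 1 at 72 h. After 24 h, *Id1* was lower, with 80.2, 67.8, 82.9 and 83.4 CPM with MEKi and 119, 104, 120 and 152 CPM with DMSO. No library overlapped, and the log2 fold change was −0.64 (SE 0.168, FDR 0.0139). The call was lost without DMSO library M5 (−0.53, FDR 0.0769) or MEKi library M2 (−0.58, FDR 0.0711). It was also not made with glmTreat or with voom, quality weights and treat, the test of the study. It was the 1 call among the 10 members, where 3.27% of all genes tested were called. *Id2* and *Id3* had log2 fold changes of −0.03 (SE 0.157, FDR 0.955) and −0.06 (SE 0.117, FDR 0.869), with 95% intervals of −0.35 to 0.28 and −0.30 to 0.17. *Bmp4* had 9.29, 7.31, 15.4 and 17.3 CPM with MEKi, the highest of which lay above the lowest DMSO library at 16.4 CPM, and a log2 fold change of −0.57 (95% interval −1.07 to −0.06, FDR 0.241). The other values were −0.33 for *Bmp2* (FDR 0.445), 0.19 for *Bmp7* (FDR 0.693), −0.17 for *Bmpr1a* (FDR 0.647), −0.12 for *Bmpr2* (FDR 0.803), 0.23 for *Smad7* (FDR 0.498) and −0.03 for *Smad6*. In the same comparison 13 of 14 endothelial markers were called lower, with sums of 80.7 to 96.3 CPM with MEKi and 292 to 443 CPM with DMSO and no marker at 0. For germ cells 3 of 6 tested markers were called higher, with sums of 257 to 456 and 110 to 170 CPM. Of the pericyte and smooth muscle markers 3 of 7 were lower, and of the pre-granulosa markers 2 of 8 were higher and 1 lower. Also called were 1 of 10 Sertoli cell markers, higher, and 1 of 5 tested Leydig and 1 of 7 tested macrophage markers, lower. Their part in the *Id1* value was not tested.

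After 72 h with MEKi, *Smad7* had 47.9, 47.8, 36.7 and 36.1 CPM, below the DMSO libraries at 73.3, 56.2, 58.8 and 66.6 CPM. The log2 fold change was −0.60 (SE 0.156, FDR 0.00738), and this was the 1 of 10 members called, where 6.47% of genes tested were. It fell short of the call without DMSO library M2 (−0.52, FDR 0.0513) or M6 (−0.58), or MEKi library M4 (−0.54) or M5 (−0.54). Neither glmTreat nor voom with quality weights and treat called it. *Bmpr2* had 77.3, 91.3, 63.1 and 81.4 CPM with MEKi and 128, 99.9, 93.3 and 118 CPM with DMSO, with no overlap. Its log2 fold change of −0.50 (SE 0.171, FDR 0.0487) did not reach a 1.5-fold change, except without MEKi library M3 (−0.59, FDR 0.0397). *Bmpr1a* was also lower in every MEKi library, at −0.37 (SE 0.152, FDR 0.103). The values of *Bmp2*, *Bmp4*, *Bmp7* and *Smad6* were 0.32, 0.04, 0.21 and −0.10 (FDR 0.285, 0.932, 0.604 and 0.831).

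*Id1* at 72 h did not repeat its value at 24 h. It had 149, 138, 122 and 117 CPM with MEKi and 123, 133, 110 and 132 CPM with DMSO, with a log2 fold change of 0.08 (SE 0.164, FDR 0.806). The values of *Id2* and *Id3* were 0.40 (SE 0.156, FDR 0.0815) and 0.31 (SE 0.117, FDR 0.0721), neither past the threshold. Tested between the times, the MEKi effect on *Id1* differed by 0.72 (SE 0.235, FDR 0.114), which missed the threshold, and that on *Smad7* by −0.83 (SE 0.218, FDR 0.0354). *Smad7* was the 1 of 10 members past this test, against 1.49% of genes tested, and the values of the 8 members other than *Id1* and *Smad7* lay between −0.38 for *Bmpr2* and 0.65 for *Bmp2*. It missed the threshold without any of 7 libraries in turn: XY 24 h DMSO M5, 24 h MEKi M1 or M6, 72 h DMSO M2 or M6, or 72 h MEKi M4 or M5, with values from −0.75 to −0.82 and FDR from 0.0532 to 0.103, and with total counts for scaling (−0.81, FDR 0.0519). At 72 h with MEKi, 10 of 14 endothelial markers were called lower (sums of 121 to 138 CPM, against 141 to 236 CPM with DMSO) and 6 of 7 tested macrophage markers (22.6 to 33.2 against 45.7 to 136 CPM). Of the Leydig markers 4 of 5 tested were higher (842 to 1323 against 409 to 614 CPM), of the Sertoli cell markers 4 of 10 lower (713 to 974 against 948 to 1520 CPM), and of the pericyte and smooth muscle markers 2 of 7 higher and 3 lower (1037 to 1171 against 605 to 756 CPM). No marker of these lists was at 0 in a whole group, and their part in these values was not tested.

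FGF receptor inhibition called 0 of 10 members at 72 h by edgeR's quasi-likelihood test, where 1.80% of genes tested were called. DESeq2 also called 0, and no member had an unadjusted p below 0.05. The log2 fold changes against DMSO lay between −0.33 for *Bmpr2* (95% interval −0.67 to 0.01) and 0.40 for *Bmp7* (−0.08 to 0.87). *Id1*, *Id2* and *Id3* had values of −0.23, −0.25 and −0.01, with intervals of −0.56 to 0.11, −0.56 to 0.07 and −0.25 to 0.23. *Smad6* and *Smad7* had values of −0.26 and −0.20, with intervals of −0.75 to 0.24 and −0.51 to 0.11. Those of *Bmp2*, *Bmp4* and *Bmpr1a* were −0.09, 0.04 and −0.11. At 24 h, where the inhibitor and the pool of libraries cannot be told apart, 0 of 10 were called by edgeR or DESeq2, where 3.27% of genes were. No member had an unadjusted p below 0.05 there either. The values were −0.34 for *Bmp4*, −0.28 for *Id2*, −0.22 for *Id1*, −0.11 for *Bmp7* and 0.18 for *Bmpr1a*, and between −0.01 and 0.04 for *Bmp2*, *Bmpr2*, *Id3*, *Smad6* and *Smad7*.

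The 2 inhibitors were compared at the matched dose of 500 nM and the matched time of 72 h. *Id2* had 290, 270, 194 and 273 CPM with MEKi and 202, 169, 137 and 148 CPM with FGFRi. The lowest MEKi library lay below the highest FGFRi library, and the log2 fold change of MEKi over FGFRi was 0.65 (SE 0.157, FDR 0.00386). It fell below a 1.5-fold change without FGFRi library M5 (0.56) or MEKi library M2 (0.58). Neither glmTreat nor voom with quality weights and treat called it. *Id2* was the 1 of 10 members called, where 6.43% of genes tested were called. *Id3* had a difference of 0.32 (SE 0.117, FDR 0.0684) with every MEKi library the higher, at 350, 286, 286 and 306 CPM against 275, 229, 244 and 233 CPM. *Bmp2* and *Id1* were likewise higher in every MEKi library, by 0.41 (SE 0.191, FDR 0.184) and 0.30 (SE 0.165, FDR 0.263). *Bmpr1a* was lower in every MEKi library, with 77.7, 78.0, 73.2 and 75.0 CPM against 101, 92.0, 87.4 and 83.9 CPM (−0.26, SE 0.153, FDR 0.312). *Id3*, *Bmp2*, *Id1* and *Bmpr1a* were not called, and the share of all genes separated in this way was not counted. *Smad7* had 47.9, 47.8, 36.7 and 36.1 CPM with MEKi and 69.7, 41.3, 54.8 and 58.7 CPM with FGFRi, which overlapped, and a difference of −0.40 (95% interval −0.72 to −0.09, FDR 0.0988). The differences of *Bmp4*, *Bmp7*, *Bmpr2* and *Smad6* were 0.00, −0.18, −0.17 and 0.16, with intervals of −0.46 to 0.46, −0.64 to 0.28, −0.51 to 0.18 and −0.34 to 0.65. In this comparison 7 of 10 Sertoli cell markers were called lower with MEKi (sums of 713 to 974 CPM, against 1404 to 2580 CPM with FGFRi), and of the endothelial markers 7 of 14 were lower and 1 higher (121 to 138 against 128 to 206 CPM). Of the pericyte and smooth muscle markers 3 of 7 were lower, of the erythroid markers 2 of 8 lower and of the Leydig markers 1 of 5 higher. Their part in these values was not tested.

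**Figure D5:**
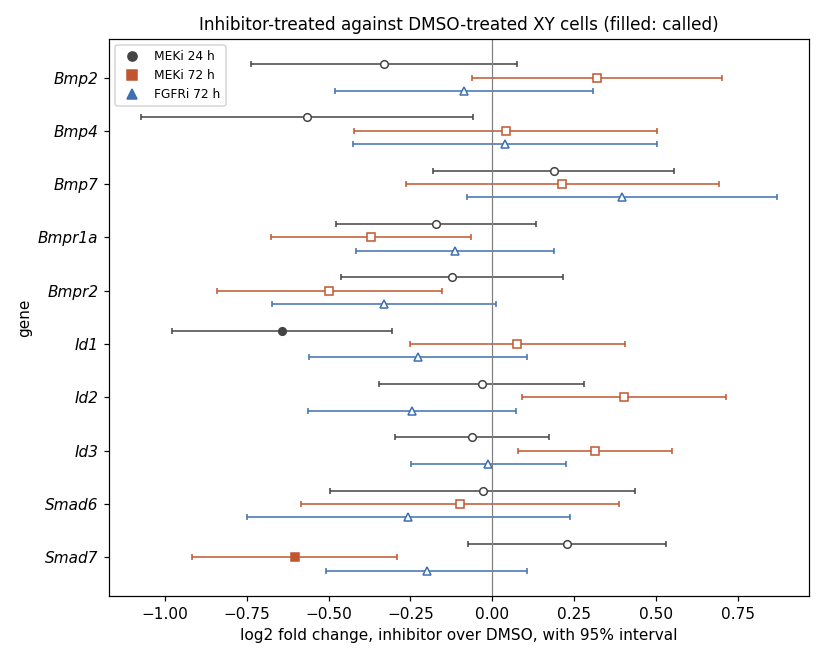
Log2 fold changes of inhibitor over DMSO in XY cells (horizontal axis) for the 10 genes (vertical axis), for MEKi at 24 h and 72 h and FGFRi at 72 h, with 95% intervals. Filled symbols were called. They are *Id1* with MEKi at 24 h, at −0.64, and *Smad7* with MEKi at 72 h, at −0.60.

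Of 45 other BMP pathway genes listed, 44 were in the table and 37 were tested. Between the sexes, 6 were called higher and 8 lower in XX at 0 h, 5 higher and 12 lower at 24 h, and 4 higher and 13 lower at 72 h. Of all genes tested, 17.3% were called at 0 h, 19.6% at 24 h (10.3% lower in XX) and 20.3% at 72 h (10.8% lower in XX). At 24 h the largest changes were in *Sostdc1*, which encodes a BMP and Wnt antagonist (log2 fold change −5.93, SE 0.294, FDR 3.63e-23), *Fst*, which encodes follistatin, a binder of activins and some BMPs (4.69, SE 0.225, FDR 9.89e-24), *Msx1*, a homeobox target of BMPs (3.47, SE 0.251, FDR 9.29e-17), and the ligand gene *Bmp5* (−2.27, SE 0.424, FDR 2.44e-05). *Msx1* was thus higher in XX cells at the time at which *Id1*, *Id2* and *Id3* were lower. Its mean in XX cells was 104 ± 13 CPM at 0 h, 40.9 ± 13 CPM at 24 h and 17.9 ± 6.1 CPM at 72 h (SD, n = 4), and its largest XY mean was 5.99 CPM. It was called lower at 24 h than at 0 h in XX cells (log2 fold change −1.34, SE 0.192, FDR 5.54e-07).

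By role, 5 of 9 tested receptors and co-receptors were called lower in XX at 24 h and 1 higher. Of all genes tested, 10.3% were called lower and 9.24% higher in that comparison. Those lower were *Acvr1* and *Acvrl1*, type I receptor genes, *Eng*, which encodes the co-receptor endoglin, and *Rgma* and *Rgmb*, and that higher was *Neo1*. *Acvr1* had a log2 fold change of −1.21 (SE 0.191, FDR 9.68e-07) and *Acvrl1* one of −1.45 (SE 0.242, FDR 3.21e-06). Of 10 tested antagonists and extracellular modulators, 5 were lower and 2 higher. *Chrd*, which encodes the antagonist chordin, was among those lower (−2.26, SE 0.638, FDR 0.00509). *Acvrl1* and *Eng* are known as receptor genes of endothelial cells, whose markers are given above. The part of these cells in the 2 values was not tested. With MEKi at 24 h, where 13 of 14 endothelial markers were called lower, *Eng* was called lower and *Acvrl1* was not. The *Acvrl1* means there were 17.8 CPM with MEKi and 23.4 CPM with DMSO.

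At 0 h the largest changes were in *Fst* (log2 fold change 7.43), *Sostdc1* (−4.36) and *Msx1* (4.12). At 72 h they were in *Bmp3* (4.19), which encodes a BMP that opposes others, *Msx1* (3.99), *Sostdc1* (−3.37) and *Fst* (3.06). *Bmp3* was measured at 49.0 ± 8.2 CPM in XX and 2.64 ± 2.0 CPM in XY cells at 72 h (SD, n = 4). *Fstl3*, which encodes another follistatin-like binder, was called higher in XX at 24 h (1.56, SE 0.243, FDR 6.87e-07) and lower at 72 h (−0.96, SE 0.250, FDR 0.00222), and the difference of the 2 was −2.53 (SE 0.349, FDR 2.43e-06). In culture, 8 of the 37 rose and 1 fell in XY cells, where 14.4% of all genes tested were called. The largest values were those of *Bmp3* (2.12), *Fst* (1.24), *Gata2* (−1.07) and *Nbl1* (0.96). *Bmp3* was near the floor there, with 0 to 3 counts per library at 0 h and 0 to 27 at 24 h, which overlapped. *Fst* was also low in XY cells, with 2 to 4 counts per library at 0 h and 9 to 17 at 24 h. Its sex difference at 0 h rests on the same low XY counts. In XX cells 4 rose and 6 fell, where 7.73% were called, led by *Bmp3* (4.63), *Smad9* (−1.95), *Bmp5* (−1.82) and *Fst* (−1.50). *Bmp3* had 0 to 1 counts per XX library at 0 h and 4 to 23 at 24 h. XX means of *Smad9* went from 3.68 to 0.84 CPM and those of *Bmp5* from 6.27 to 1.80 CPM.

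With the inhibitors, fewer of these genes were called, as were fewer of all genes tested. The shares over all genes were 3.27% with MEKi at 24 h, 6.47% with MEKi at 72 h and 1.80% with FGFRi at 72 h. With MEKi at 24 h, *Fstl3* was called higher, at 27.3 ± 4.6 against 7.17 ± 1.6 CPM (SD, n = 4; log2 fold change 1.95, SE 0.244, FDR 7.69e-08), and *Eng* lower (−1.09, SE 0.305, FDR 0.0252). At 72 h with MEKi, *Fstl3* (0.99, SE 0.215, FDR 0.0013) and *Sostdc1* (0.59, SE 0.158, FDR 0.00948) were called higher, and *Eng* (−1.01, SE 0.319, FDR 0.0311) and *Skil*, which encodes a Smad co-repressor (−0.66, SE 0.168, FDR 0.00608), lower. With FGFRi at 72 h, *Fstl3* alone was called (0.85, SE 0.216, FDR 0.0204). MEKi and FGFRi at 72 h differed in *Msx1* (−1.90, SE 0.527, FDR 0.0131), *Sostdc1* (0.76, SE 0.159, FDR 0.000698) and *Acvr1* (0.72, SE 0.193, FDR 0.00956), where 6.43% of all genes tested were called. *Msx1* was near the floor in these XY cells, with 1 to 4 counts per library with MEKi and 5 to 13 with FGFRi. Its means were 0.78 CPM with MEKi, 3.12 CPM with FGFRi and 1.12 CPM with DMSO. At 24 h, *Eng* was among the genes called between FGFRi and DMSO, which lie in different pools (−1.11, FDR 0.0205).

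The genes whose log2 CPM most resembled that of each member over the 40 libraries are given as a description, since the libraries share groups and pools. *Bmp2* was most like *Ryr2* (Pearson r = 0.91), *Fst* (0.89) and *Fgfr2* (0.89). *Id2* and *Id3* were among each other's 3 most alike genes (0.82), and others were *Ddah2* (0.85) for *Id2* and *Cd302* (0.81) and *Fabp5* (0.80) for *Id3*. *Id1* had lower values, with *H3f3a* (0.70), *Cd302* (0.67) and *Gng11* (0.66). *Bmp7* was most like *Shisa2* (0.86), *Tgfbi* (0.85) and *Gldn* (0.84), and *Bmp4* most like *Steap4* (0.77), *Fbln5* (0.76) and *Evc* (0.75). For *Smad6* they were *Garem1* (0.80), *Sema3g* (0.79) and *Tbx2* (0.78), and for *Smad7* ENSMUSG00000110850.1 (0.74), *Btg3* (0.74) and *Nuak1* (0.72). *Bmpr1a* was most like *Dcbld2* (0.87), *Sp1* (0.84) and *Dnmt3a* (0.83), and *Bmpr2* most like *Rev3l* (0.81), *Fndc3b* (0.79) and *Myo9a* (0.78).

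On GRCm39, as annotated by GENCODE M39, *Bmp2* lies on chromosome 2 from 133394079 to 133404816, *Bmp4* on chromosome 14 from 46620250 to 46636745 and *Bmp7* on chromosome 2 from 172709805 to 172782410. *Bmpr1a* lies on chromosome 14 from 34132687 to 34225379 and *Bmpr2* on chromosome 1 from 59802544 to 59918173. *Id1* lies on chromosome 2 from 152566218 to 152579544, *Id2* on chromosome 12 from 25143798 to 25147282, *Id3* on chromosome 4 from 135870808 to 135873066 and *Smad6* on chromosome 9 from 63860341 to 63929793. All are protein-coding. Long non-coding RNAs on the other strand overlap exons of *Bmp4*, *Bmp7*, *Bmpr1a*, *Bmpr2*, *Id1*, *Id2* and *Id3*, and the strand used in counting tells them apart.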

How the data were processed

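The deposited values are counts per gene, which the authors made with scPipe and Rsubread: reads were aligned to GRCm39, assigned to GENCODE exons by strand, and unique molecular identifiers were counted once per gene, without normalisation. The methods state this for the germ cell libraries, and the somatic ones are taken to be alike. Libraries were grouped by the study's names. The label of the first pool names 19 of its 20 libraries, and XY 24 h MEKi library M2 was grouped by its column name.

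Genes were kept by filterByExpr and scaled by TMM, and all 40 libraries were fitted with 10 group means by the quasi-likelihood test of edgeR 4.0.16 (R 4.3.3), with contrasts for 10 comparisons and 3 differences of effects. The study used voom with quality weights and treat (limma 3.58.1), run as an alternative, as were DESeq2 1.42.0, other scalings and filters, and each library left out. CPM use scaled library sizes. The procedure was tested on simulated data. Promoters came from RefSeq (GRCm38.p6), with 6 of 10 members matched. *Bmp2*, *Bmp7* and *Id1* had no entry there, and *Smad7* was left out of the search. All 10 members are named in each comparison. Of the other pathway genes, up to 4 called genes with the largest fold change are named, with any that make up a count of 5 or fewer and a few (*Acvr1*, *Acvrl1*, *Fstl3* between the sexes) chosen after their values were seen. Alike genes are the 3 with the highest Pearson r of log2 CPM (prior count 2). The members, lists and tests were chosen with earlier results of these data known. Some genes that met the rule for named genes are not reported here.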

Additional observations from a re-analysis of the deposited data

Results flagged for a closer look

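Effects that differed between groups by a test of the difference itself were those of the first 24 h of culture in XX less XY cells on *Bmp2* (−1.69 on the log2 scale), *Bmp7* (0.89), *Id1* (−1.01) and *Id3* (−1.24), the sex difference of *Id3* at 72 h less that at 24 h (0.99), and the MEKi effect on *Smad7* at 72 h less that at 24 h (−0.83). Their FDR values from edgeR's quasi-likelihood test stand in the text above. Only the differences for *Bmp7* and *Smad7* were lost when single libraries were left out.

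In 3 of 100 pairs of member and group, a library lay far from the other 3 by Dixon's criterion at the 95% level. XX 72 h library F4 had 80.3 CPM of *Bmpr2*, and the others 114 to 120 CPM. XY 24 h FGFRi library M1 had 89.9 CPM of *Id1*, and the others 110 to 113 CPM. XY 24 h DMSO library M5 had 44.3 CPM of *Smad7*, and the others 52.9 to 54.5 CPM. Chance alone flags about 1 group in 20.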

How the results depend on the processing

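No called value changed sign under any alternative. Among uncalled values, 2 of those followed changed sign, both with the replicate number as a block: *Smad7* with MEKi at 24 h (−0.087) and *Id2* in XX culture (0.11). The alternatives that left the number of members called within 1.5 times of that reported were RLE scaling, DESeq2 and a minimum of 1 CPM in 4 libraries, in all comparisons they were run for. Between the sexes at 24 h, glmTreat called 2 members and voom with treat 2. At 72 h they called 2 and 1. For MEKi at 24 h, MEKi at 72 h and MEKi against FGFRi both called 0, and for XY and XX culture both called 1 in each. These tests ask for a change beyond 1.5-fold by construction, and over all genes they called 1388 and 936 between the sexes at 0 h, where 2622 were called, and 132 and 75 for MEKi at 72 h, where 979 were called. For the MEKi effect at 72 h less that at 24 h, total counts gave 0 members, no filter on low counts 2, and the libraries of the groups compared alone 2, with *Id1* added (FDR 0.00375 and 0.0226 from edgeR).

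Leaving out each library in turn gave 1 member at 0 h, 5 to 7 at 24 h and 5 to 6 at 72 h between the sexes. It gave 0 to 1 for MEKi at 24 h, 0 to 2 at 72 h and 0 to 1 for MEKi against FGFRi, 2 to 3 in XY culture and 2 to 4 in XX culture, and 0 to 1 for the MEKi effect at 72 h less that at 24 h.

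Same-numbered libraries did not deviate together (correlations from −0.156 to 0.116), so the numbers were not taken to pair them. With the replicate number as a block, MEKi against FGFRi had 0 members called and XX culture 1, where it rests on the 2 shared numbers. The calls not made with it were *Id2* for MEKi against FGFRi (0.54, FDR 0.0561), *Id1* (−0.28, FDR 0.435) and *Smad7* (−0.38, FDR 0.412) in XX culture, *Smad6* in XY culture (0.78, FDR 0.14), and *Bmp4* (−0.59, FDR 0.3) and *Smad7* (−0.49, FDR 0.163) between the sexes at 24 h, all from edgeR. Between the sexes at 72 h no paired analysis was possible because the groups share 1 number. *Smad6* and *Bmp4*, at 8 to 98 and 11 to 116 counts per library, are the members whose precision depth limits most.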
